A study of Mus musculus with 13 samples.

Results

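The trypsin-like serine protease genes of the mouse testis were followed across 13 RNA sequencing libraries. Members were all genes of the deposited table whose symbol is Prss, Tmprss, Klk or Htra followed by a digit, which gave 87 of 30479 genes. They comprised 40 Prss, 17 Tmprss, 26 Klk and 4 Htra genes. Levels are reads scaled to library size (RPM). A level of 1 RPM in 2 or more libraries was reached by 46 of the 87 members (29 Prss, 9 Tmprss, 5 Klk and 3 Htra genes). The other 41 stayed under it, and 12 of those had no read in any library. The symbol does not guarantee the enzyme. Prss16 encodes a thymic peptidase of another protein fold, and Prss23os is an antisense transcript of Prss23 that encodes no protease.

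Trypsin-like proteases cut proteins after lysine or arginine with a catalytic triad of serine, histidine and aspartate, and most are made as inactive precursors. Rodent testis expresses a large group of Prss genes in germ cells, several of them carried in the acrosome, the secretory vesicle of the sperm head, or held on the sperm surface. Prss37, Prss55 and Tmprss12 are known to be needed for maturation of the sperm surface protein ADAM3 and for passage of sperm into the oviduct. Tmprss proteins are membrane-anchored, Klk genes encode the secreted kallikreins, and HTRA proteins combine a trypsin-like domain with a PDZ domain. Members of the WAP family, to which the gene altered in these mice belongs, include secreted inhibitors of such proteases.

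All mice were at postnatal day 25 and carried wild-type (WT), heterozygous (Het) or knockout (KO) Wfdc15a. The labels describe neither the allele nor the strain. Whole testis, freed of its capsule, gave 2 WT, 1 Het and 3 KO libraries from 2 ng of RNA each. Round spermatids, haploid germ cells formed by meiosis, gave 2 WT, 2 Het and 3 KO libraries of 100 to 200 cells that were sorted on a DNA dye. Libraries were made by Smart-seq2, which keeps no strand. Whether the libraries within a group were taken from different animals is not in the labels. The p-values therefore measure the spread between these libraries, which may be technical. That spread is pooled over all groups of a fit.

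Library totals were 7375270 to 18438704 reads in testis and 10825690 to 20927428 in round spermatids, so 3 reads, the limit that a count of 0 allows, stood for 0.143 to 0.407 RPM, counting error only. Wfdc15a itself was at 212 and 207 RPM in WT testis, 48.4 in Het and 116, 36.8 and 44.3 in KO (values are given in replicate order throughout). The WT round spermatids had 267 and 234 RPM, the Het ones 65.0 and 71.5 and the KO ones 97.9, 67.4 and 48.1 RPM, so every KO library held reads of it and KO libraries lay on both sides of Het. On the leading principal component of all other genes (71.6% of the variance in testis, 55.5% in round spermatids) the WT libraries and KO replicate 1 lay on one side and Het with KO replicates 2 and 3 on the other, in both cell types. The summed level of 10 Sertoli cell markers was 19.8 to 28.1 RPM on the WT side of testis and 1361 to 1478 RPM on the other side, that of 10 peritubular and stromal markers 32.9 to 225 and 939 to 1460 RPM. In round spermatids these sums were 2.77 to 9.51 and 58.7 to 154 RPM for Sertoli markers, and 8.08 to 17.7 and 503 to 1101 RPM for stromal ones. Round spermatid markers were all detected in round spermatids, with sums of 1310 to 2411 RPM. In WT these sums were 2411 and 2231 RPM in round spermatids and 4164 and 2155 RPM in testis. Of the 10 markers, 6 had a positive log2 difference of WT round spermatids minus WT testis. Spermatocyte markers summed to 10216 to 12984 RPM in round spermatids and to 19066 and 17205 RPM in WT testis. The purity of the sorted cells was not tested. The testis library of KO replicate 1 had no read for 15044 genes, against 7892 to 10364 in the other testis libraries. Whether any of these differences bears on a member was not tested, and member results are therefore given with and without KO replicate 1.

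Prss39 had the most reads of all members in each of the 13 libraries. It encodes TESP1, a protease of the sperm acrosome. Its level was 823 and 682 RPM in WT testis, 133 in Het and 448, 154 and 138 RPM in KO. Round spermatids had 596 and 638 RPM in WT, 387 and 366 in Het and 658, 382 and 352 RPM in KO. WT libraries and KO replicate 1 were thus the highest in both cell types. Prss39 made up 14.1% to 38.1% of all member reads, and the 87 members together held between 908 and 2214 RPM.

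Expressed per kilobase of exon (RPKM), which allows genes to be ordered, WT round spermatids had Prss39 at 463, Prss46 at 214, Prss54 at 98.3, Prss21 at 65.4 and Prss45 at 47.3 RPKM. In WT testis the order of levels was Prss39 at 565, Prss45 at 131, Prss37 at 109.6, Prss58 at 72.5 and Prss48 at 69.5 RPKM. All of Prss48 lies inside the gene model of Sh3d19 on the opposite strand, so its reads and its place in this order are uncertain. Prss21 encodes testisin, a membrane-anchored protease of maturing sperm. It was at 136 and 166 RPM in WT testis, 51.6 in Het and 146, 61.1 and 74.0 in KO, and at 102 to 164 RPM in the 7 round spermatid libraries, where KO overlapped WT and Het, and both Het libraries lay under both WT libraries. Prss40, which encodes the acrosomal protease TESP2, was at 55.5 and 55.1 RPM in WT testis, 16.8 in Het and 66.6, 20.6 and 14.0 in KO. Its round spermatid levels were 84.6 and 67.9 RPM in WT, 42.7 and 38.7 in Het and 96.3, 52.8 and 39.5 in KO, again highest in WT and KO replicate 1.

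**Figure D1:**
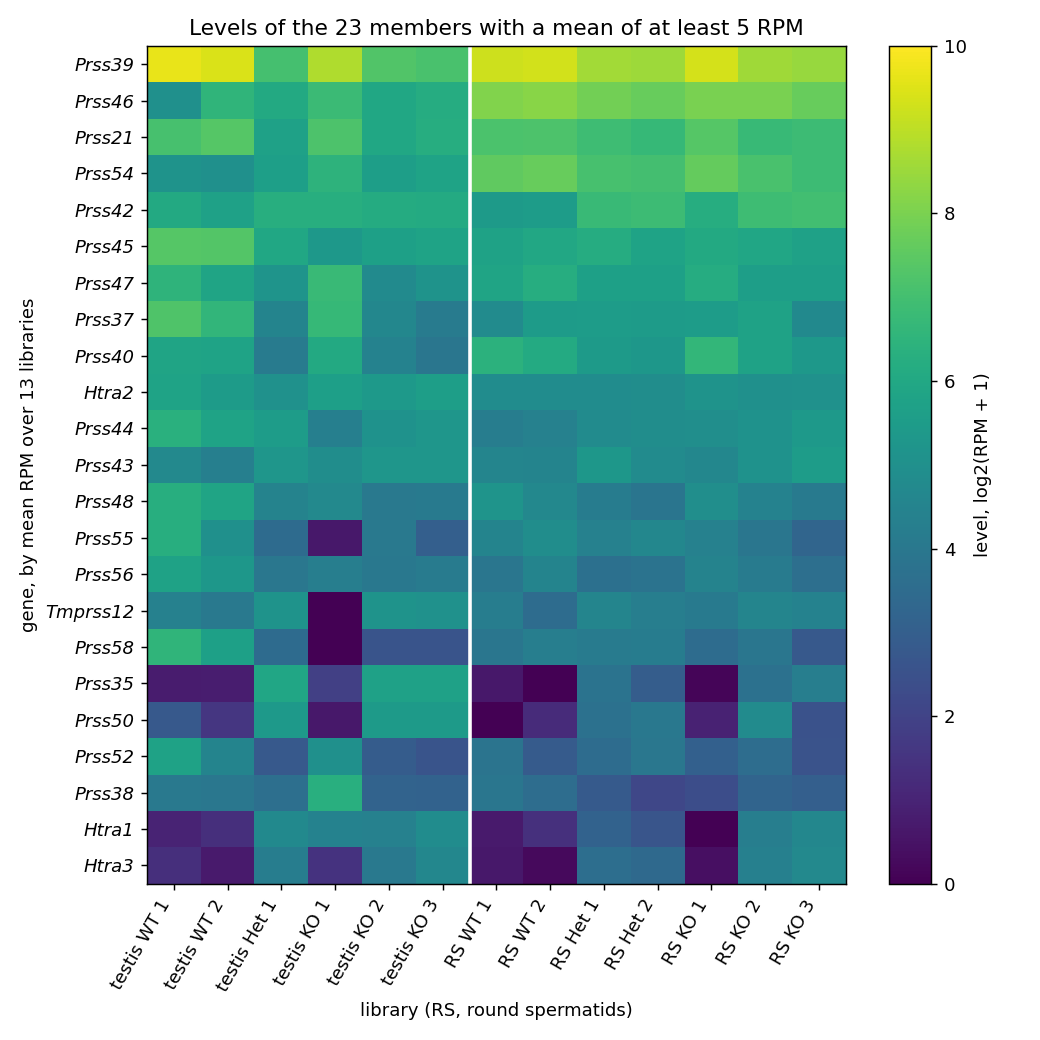
Level of the 23 members with a mean of at least 5 RPM, as log2(RPM + 1) by colour, in the 6 testis libraries (left of the white line) and the 7 round spermatid (RS) libraries. Prss39 is brightest in every library, and Htra1, Htra3, Prss35 and Prss50 are dark in the WT libraries of both cell types.

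The comparison of WT round spermatids with WT testis asked which members differ between the sorted cells and whole testis. Tests here and below used limma on log2(RPM + 1), with p-values adjusted over all genes tested and a threshold of 0.05. Log2 differences on this scale are smaller than true ones for genes of low level. Because the spread is pooled, the gap between KO replicate 1 and KO replicates 2 and 3 enters the p-values of every fit with all KO libraries. This holds for comparisons between WT groups too. Prss46, Prss54 and Prss53 were higher and Prss45 and Prss44 lower in round spermatids, 5 of 46 members called against 11.5% of all 20085 genes tested. Higher calls were 3 of 46 beside 9.09% of all genes, and lower calls 2 of 46 beside 2.39%. The median difference over the 46 members was -0.41 against 0.20 over all genes. Whole testis holds many cell types, and fewer cells of a type cannot be told apart from less RNA per cell in it.

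Prss54 encodes an acrosomal sperm protein. It was at 34.1 and 31.2 RPM in WT testis and at 188 and 204 RPM in WT round spermatids, so the groups lay far apart. The means were 32.6 ± 2.04 and 196 ± 11.8 RPM (SD, n = 2 each), 6.01-fold higher in spermatids, a log2 difference of 2.55 (SE 0.35, limma adjusted p = 0.00154). Prss46, a testis protease gene of the chromosome 9 cluster, was at 31.5 and 93.1 RPM in WT testis and at 276 and 299.8 RPM in WT round spermatids. Its log2 difference was 2.38 (SE 0.44, limma adjusted p = 0.00594). The 2 WT testis libraries differed from each other, so that it was 1.62 without replicate 1 and 3.15 without replicate 2 of WT testis, and it did not pass without either WT round spermatid library (2.44 and 2.33). Prss53, which encodes polyserase-3, was at 1.68 and 1.01 RPM in WT testis and 8.53 and 7.99 RPM in WT round spermatids, a log2 difference of 1.99 (SE 0.57, limma adjusted p = 0.0447). Prss53 overlaps the predicted gene Gm21974 on the same strand, so its reads are uncertain. Its call was lost whenever any WT library was left out and in 5 of the other settings.

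Prss45, another gene of the cluster, was at 163 and 161 RPM in WT testis and at 53.8 and 63.1 RPM in WT round spermatids. The log2 difference was -1.46 (SE 0.30, limma adjusted p = 0.00999). Prss44, also called TESSP4, was at 79.6 and 55.0 RPM in WT testis and 17.7 and 20.3 RPM in WT round spermatids, a log2 difference of -1.75 (SE 0.40, limma adjusted p = 0.0167). Neither gene's groups overlapped. Prss45 did not pass when any WT library was left out (-1.57 to -1.34), nor Prss44 without WT testis replicate 1 or either WT round spermatid library (-1.84 to -1.49), whereas Prss54 passed each time. In all, 6 of 46 members lay above testis in both WT round spermatid libraries and 24 lay below, beside 38.6% above and 23.7% below over all genes.

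**Figure D2:**
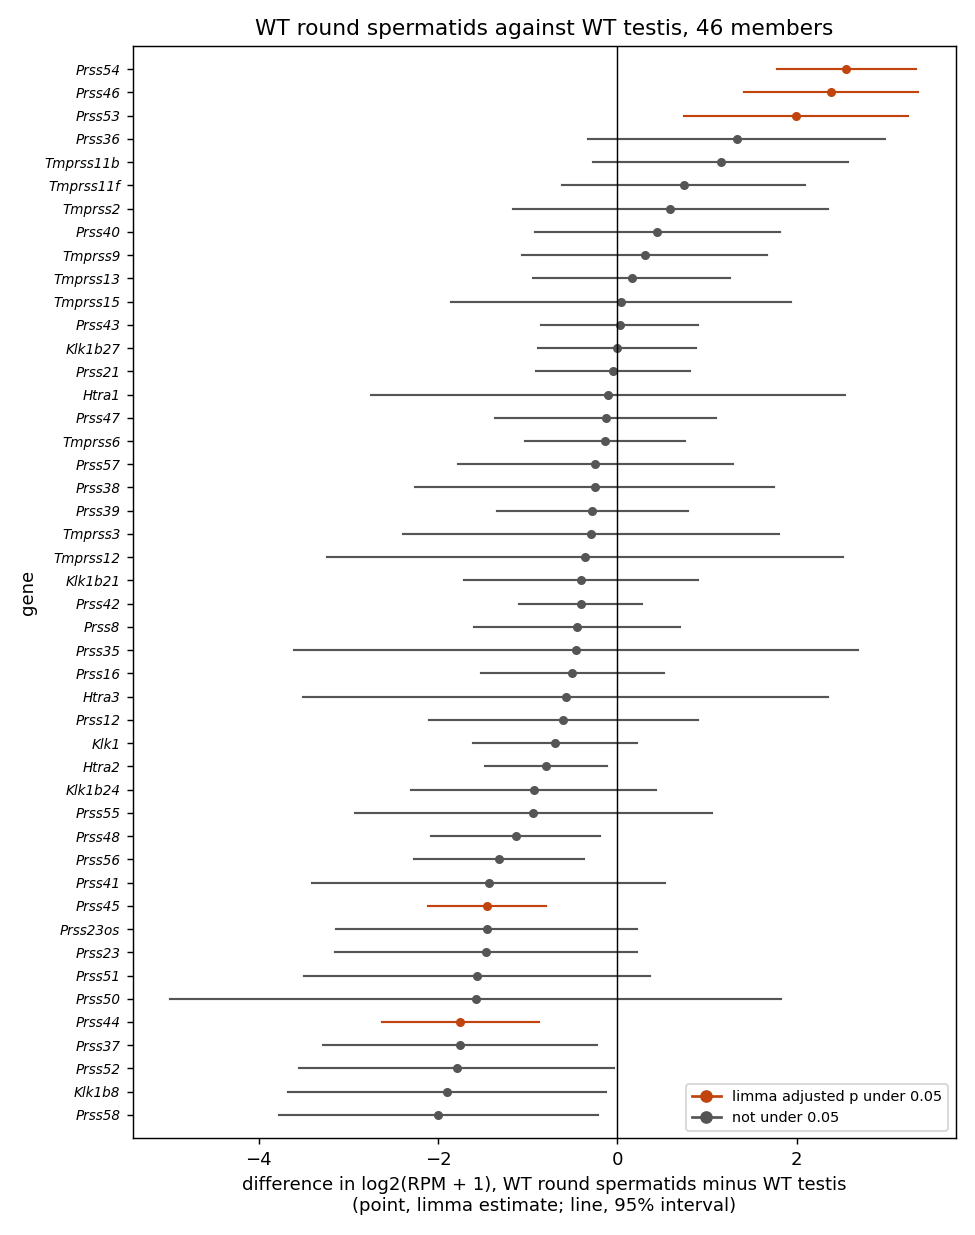
Difference in log2(RPM + 1) between WT round spermatids and WT testis (2 libraries each) for the 46 members, with its limma 95% interval, ordered by size. Prss54, Prss46 and Prss53 at the top and Prss45 and Prss44 below 0 are past the threshold, and 34 of 46 estimates are under 0.

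These calls depended on scaling. Centring each library on its median shifted the median of all genes from 0.20 to -0.15. It left 0 higher and 3 lower members (Prss58, Prss44 and Prss45), and changed the calls over all genes from 1825 higher and 480 lower to 727 and 455. Prss45 and Prss44 were lower under every scaling tried, and Prss54 and Prss46 kept differences of 2.20 and 2.04 with centring but did not pass. Quantile normalization gave 2 higher and 3 lower members, and voom on the recovered reads 3 higher and 3 lower. Without KO replicate 1 in both cell types, an alternative added after the data were seen, 4 members were higher and 12 lower, 35.6% of members beside 37.5% of all genes (25.3% higher and 12.2% lower).

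The promoter windows of 4 of the 5 members called between WT cell types are shown (Prss44 had no entry) because these genes passed the test between spermatids and whole testis. Each window is the 250 bases before the RefSeq start on the gene's own strand (build GRCm38.p6), and capitals mark CCAAT or its reverse complement ATTGG. The windows lie at chr9:110844256-110844505 (Prss46, plus strand), chr8:95575608-95575857 (Prss54, minus strand), chr7:127890971-127891220 (Prss53, minus strand) and chr9:110834338-110834587 (Prss45, plus strand). The Prss54 window falls inside the span of the deposited gene model, whose start lies further out.
Prss46: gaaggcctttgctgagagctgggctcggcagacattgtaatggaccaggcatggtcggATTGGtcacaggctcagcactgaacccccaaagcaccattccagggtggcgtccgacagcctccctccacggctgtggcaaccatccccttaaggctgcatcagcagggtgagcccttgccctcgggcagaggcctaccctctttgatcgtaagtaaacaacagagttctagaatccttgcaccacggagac
Prss54: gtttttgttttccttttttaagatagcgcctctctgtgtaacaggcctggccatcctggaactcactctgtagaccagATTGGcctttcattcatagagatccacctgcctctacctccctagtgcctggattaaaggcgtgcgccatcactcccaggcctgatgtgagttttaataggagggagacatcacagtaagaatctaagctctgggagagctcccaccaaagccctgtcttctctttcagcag
Prss53: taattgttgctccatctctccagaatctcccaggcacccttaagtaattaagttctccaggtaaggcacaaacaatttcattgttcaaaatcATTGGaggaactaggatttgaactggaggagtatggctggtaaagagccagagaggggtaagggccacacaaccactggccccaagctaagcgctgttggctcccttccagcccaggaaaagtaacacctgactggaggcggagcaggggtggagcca
Prss45: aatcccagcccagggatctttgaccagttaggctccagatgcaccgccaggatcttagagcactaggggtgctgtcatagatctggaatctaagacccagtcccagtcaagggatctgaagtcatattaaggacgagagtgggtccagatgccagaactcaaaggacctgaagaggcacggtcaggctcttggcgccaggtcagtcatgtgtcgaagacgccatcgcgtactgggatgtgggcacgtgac
The windows of Prss46, Prss54 and Prss53 each hold 1 CCAAT match, and that of Prss45 holds none. On both strands CCAAT was in 34.5% of 27025 promoters of this length, in 30 of the 69 members with an entry and in 18 of the 33 of these that reached 1 RPM in 2 libraries. The cyclic AMP response element TGACGTCA, the site of the spermatid activator CREM, was in 0 of 69 member windows beside 1.62% of all. Its shorter core TGACG, which the full element contains, was in 12 of 69 beside 17.9%, and TATAAA in 6 of 69 beside 13%. These matches are descriptions of letters only.

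A set of 6 members forms a cluster of testis proteases on chromosome 9 from 110798166 to 110864629 (build mm10), 66.464 kb in the order Prss42, Prss44, Prss43, Prss45, Prss46 and Prss50, all on the plus strand. Neighbours in the cluster had opposite patterns. Prss46 made up 8.48% and 24.4% of the cluster's reads in WT testis and 66.9% and 66.4% in WT round spermatids, while Prss44 and Prss45 fell. Prss42, also called TESSP2 and studied in meiotic spermatocytes, was at 67.0 and 51.3 RPM in WT testis and 42.9 and 45.0 RPM in WT round spermatids. Prss43, or TESSP3, was at 25 and 19.1 RPM in WT testis and 22.6 and 21.9 RPM in WT round spermatids. Neither Prss42 (log2 difference -0.41, 95% interval -1.09 to 0.28) nor Prss43 (0.02, 95% interval -0.85 to 0.89) passed the test between WT cell types.

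**Figure D3:**
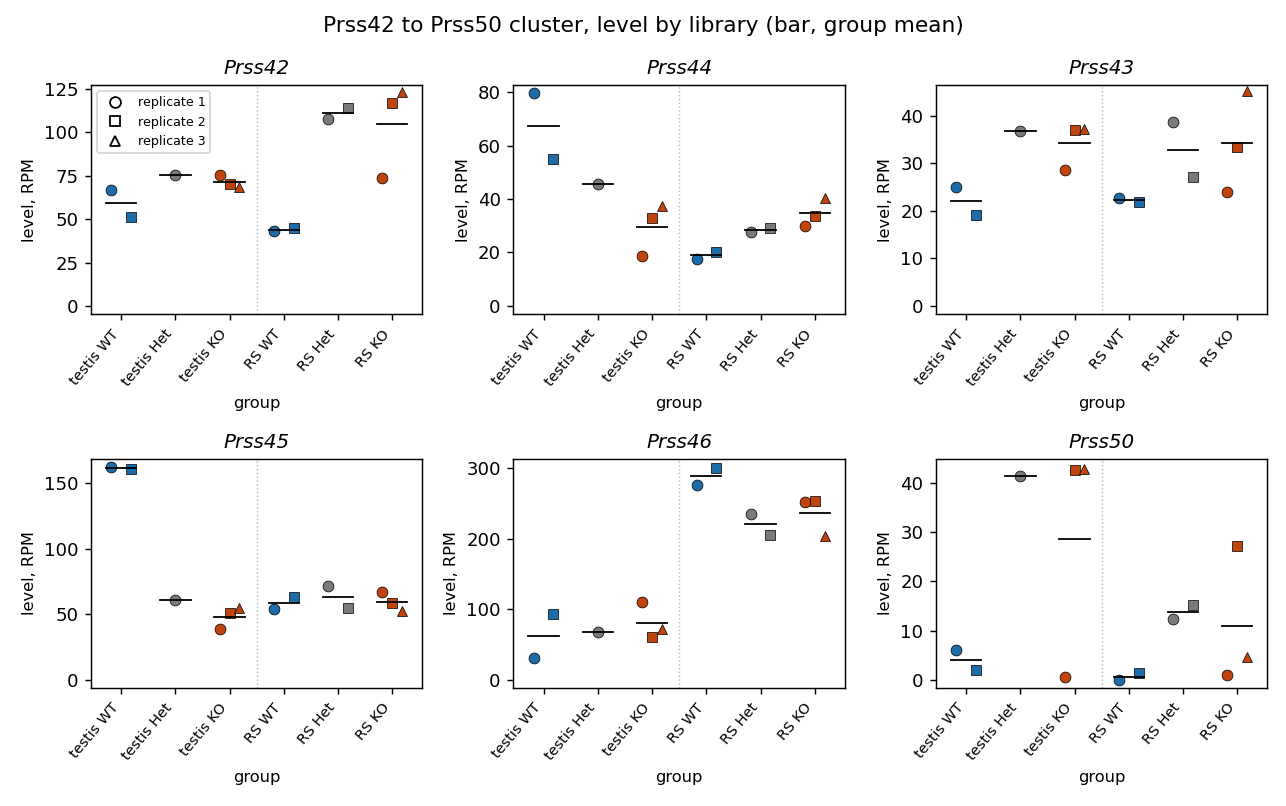
Level in RPM of the 6 cluster members in chromosome order, by library; symbols give the replicate number and bars the group mean. Prss46 is between 204 and 299.8 RPM in all round spermatid libraries, Prss45 stands at 161 and 163 RPM in WT testis alone, and Prss42 in round spermatids is lowest in the WT pair.

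In KO libraries the comparison of round spermatids with testis called 2 of 46 members, both higher, beside 2.36% of all genes in either direction and 0.936% higher. Prss46 was at 110.4, 60.7 and 71.3 RPM in KO testis and 252, 254 and 204 RPM in KO round spermatids, a log2 difference of 1.58 (SE 0.36, limma adjusted p = 0.0475). Prss54 was at 88.3, 47.2 and 55.1 RPM in KO testis and 198, 138 and 114 RPM in KO round spermatids, a log2 difference of 1.24 (SE 0.29, limma adjusted p = 0.0499). For both genes the groups did not overlap. The count was 15 of 45 without testis KO replicate 1 (40.2% of all genes) and 0 when any one of the other 5 KO libraries was left out. Without KO replicate 1 in both cell types it was 14 of 45, beside 36.9%.

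Genes that act with these proteases were read in the same comparisons, by lists that hold acrosomal proteins, the ADAM3 maturation network, inhibitors of trypsin-like proteases and other trypsin-fold proteases. Between WT round spermatids and WT testis, 6 of 12 acrosomal genes were higher and 0 lower, beside 9.09% higher and 2.39% lower over all genes. Among them Spam1, the sperm hyaluronidase, differed by 4.0 and Spaca1, an acrosomal membrane protein, by 3.59 on the log2 scale (limma adjusted p = 0.00036 and 0.000349). Of the 13 ADAM3 network genes 4 were higher and 2 lower. Adam1a rose by 2.53, Clgn, a chaperone of the spermatid endoplasmic reticulum, by 1.81, and Tex101, a germ cell surface protein, fell by 4.50 on the log2 scale. Of 22 inhibitor genes 0 were higher and 2 lower, among them Wfdc10 with a log2 difference of -4.0. Acr encodes acrosin, the best known trypsin-like protease of sperm. It was the 1 gene called among 11 other trypsin-fold proteases, with a log2 difference of 1.49 (SE 0.34, limma adjusted p = 0.0158). Acr is also on the acrosomal list, so its call counts in both. Spink2 and Serpina5 are on both the acrosomal and the inhibitor lists. In the KO comparison of the cell types 5 of 12 acrosomal, 1 of 13 ADAM3 network, 0 of 22 inhibitor and 0 of 11 other protease genes passed, all of them higher, beside 2.36% of all genes in either direction and 0.936% higher. Between KO and WT no gene of the 4 lists passed in either cell type. The inhibitor list holds Wfdc15a itself, at 212 and 207 RPM in WT testis and 116, 36.8 and 44.3 RPM in KO testis. A gene that was not called is therefore not shown to be unchanged.

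KO against WT addressed the study's question of what Wfdc15a does in spermatogenesis, here for the protease genes. No member passed in testis (0 of 46, beside 0% of 18570 genes), with 11 of 46 members and 4380 of 18570 genes with an unadjusted p under 0.05. Voom called 0 members as well. The smallest adjusted p of a member was 0.0710. The median member difference was -0.06 against 0.63 over all genes, and centring moved the latter to -0.31. KO lay above WT without overlap for 9 members and below it for 9, beside 28.2% and 14.1% of all genes.

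Prss45 was among the members whose WT testis levels stood apart from all other testis libraries, KO replicate 1 included. Against 163 and 161 RPM in WT, Het had 60.7 RPM and KO 38.9, 50.8 and 54.5 RPM. Means were 48.1 ± 8.13 RPM in KO (SD, n = 3) and 162 ± 1.19 RPM in WT (SD, n = 2), a log2 difference of -1.74 (SE 0.36, limma adjusted p = 0.0717). The round spermatid marker sum moved with it in part, at 4164 and 2155 RPM in WT, 729 in Het and 662 to 1827 RPM in KO testis. Prss44, the other cluster gene that was lower in spermatids, was at 45.5 RPM in the Het library and at 18.7, 33.0 and 37.4 RPM in KO testis, under both WT libraries. Its KO minus WT log2 difference was -1.19 (limma adjusted p = 0.21). The part of the marker sums in either difference was not tested.

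Several members of WT testis had low levels in KO, with KO replicate 1 on either side. Prss58 was at 91.1 and 50.8 RPM in WT testis, 10.3 in Het and 0, 5.02 and 5.07 RPM in KO (log2 difference -4.38, SE 1.0, limma adjusted p = 0.0790). Prss48 was at 76.2 and 55.7 RPM in WT, 20.9 in Het and 25.4, 15.7 and 16.4 RPM in KO (-1.75, limma adjusted p = 0.108). Its reads are uncertain, as Sh3d19, at up to 79.7 RPM, spans it on the opposite strand. Prss39 differed by -1.82 (SE 0.55, limma adjusted p = 0.123). Klk1b8 is a kallikrein gene with near-identical copies between which reads can be split. All of it lies inside the gene model of Gm44756 (up to 45.9 RPM) on the opposite strand, which adds to that uncertainty. Klk1b8 was at 32.2 and 8.81 RPM in WT, 1.54 in Het and 3.80, 0.549 and 0 RPM in KO. Prss56 was at 54.0 and 37.7 RPM in WT, 14.7 in Het and 18.3, 15.1 and 16.7 RPM in KO. In each of these 5 genes no KO library reached the lower WT library.

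The ADAM3-linked members differed between the KO libraries themselves. Prss37 was at 151 and 95.2 RPM in WT testis, 21.8 in Het and 102, 23.9 and 17.1 RPM in KO, so KO replicate 1 lay within the WT range. Prss55 was at 75.4 and 31.7 RPM in WT, 10.3 in Het and 0.542, 15.3 and 7.16 RPM in KO. Prss55 overlaps Prss51 on the opposite strand, so reads in the 3929 bases they share cannot be told apart. Tmprss12 was at 20.3 and 15.6 RPM in WT, 34.5 in Het and 0, 34.5 and 31.9 RPM in KO. KO replicate 1 thus had no read of Tmprss12 or Prss58, and it was the testis library with the most members at 0 (54 of 87, against 30 to 37 in the others). Prss38, in contrast, was at 78.5 RPM in KO replicate 1 and 7.79 to 15.3 RPM in the other testis libraries, and Tmprss3 at 10.6 RPM against 0 to 1.2 RPM.

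The members at higher levels in KO testis included Htra1, Htra3 and Prss35, which encode secreted proteins. HTRA1 and HTRA3 act in the extracellular matrix, and Prss35 encodes a protease-like protein studied in the ovary. Htra1 was at 0.976 and 1.52 RPM in WT testis, 25.9 in Het and 20.7, 20.2 and 28.2 RPM in KO (log2 difference 3.42, SE 0.63, limma adjusted p = 0.0710). All of Htra1 lies inside a long gene model of Fgfr2 on the opposite strand, so its reads carry that uncertainty. Htra3 was at 1.57 and 0.634 RPM in WT testis, 17.9 in Het and 1.76, 15.3 and 23.9 RPM in KO. Prss35 was at 0.705 and 0.760 RPM in WT testis, 58.8 in Het and 2.71, 52.3 and 52.5 RPM in KO. Klk1b27 had no read in WT testis and was at 2.5 RPM in the Het library and at 1.08, 2.59 and 1.58 RPM in KO. Prss54, at 34.1 and 31.2 RPM in WT, 48.8 in Het and 88.3, 47.2 and 55.1 RPM in KO, differed by 0.89 on the log2 scale, or by -0.053 with centred libraries. The high libraries of Htra3 and Prss35 were Het and KO replicates 2 and 3, those with the high Sertoli and stromal sums, whereas Htra1 was also high in KO replicate 1, whose stromal sum was 225 RPM and Sertoli sum 19.8 RPM.

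In sorted spermatids the same genes were highest in libraries with a high stromal sum. Htra1 was at 0.643 and 1.62 RPM in WT round spermatids, 7.86 and 5.27 in Het and 0, 18.3 and 23.8 RPM in KO. Htra3 was at 0.584 and 0.196 RPM in WT, 11.1 and 9.70 in Het and 0.334, 19.5 and 25.1 RPM in KO. Prss35 was at 0.584 and 0 RPM in WT, 13 and 6.65 in Het and 0.0956, 12.1 and 18.2 RPM in KO. All 10 stromal markers had a positive KO minus WT difference in both cell types, with 0 of 10 called, and Dcn among them was at 177 to 299 RPM in Het and KO replicates 2 and 3 and at no more than 0.478 RPM in the other round spermatid libraries. Whether stromal RNA contributes to the levels of these 3 members was not tested.

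Prss50, the last gene of the chromosome 9 cluster and known as TSP50, divided the libraries in the same way. It was at 6.02 and 1.96 RPM in WT testis, 41.5 in Het and 0.542, 42.5 and 42.7 RPM in KO. Round spermatids had 0 and 1.32 RPM in WT, 12.3 and 15.1 in Het and 0.956, 27.1 and 4.68 RPM in KO. Spermatogonium markers summed to 14.8 and 17.4 RPM in WT testis, 46.8 RPM in KO replicate 1 and 178 to 238 RPM in the other 3 testis libraries, and whether this bears on Prss50 was not tested.

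**Figure D4:**
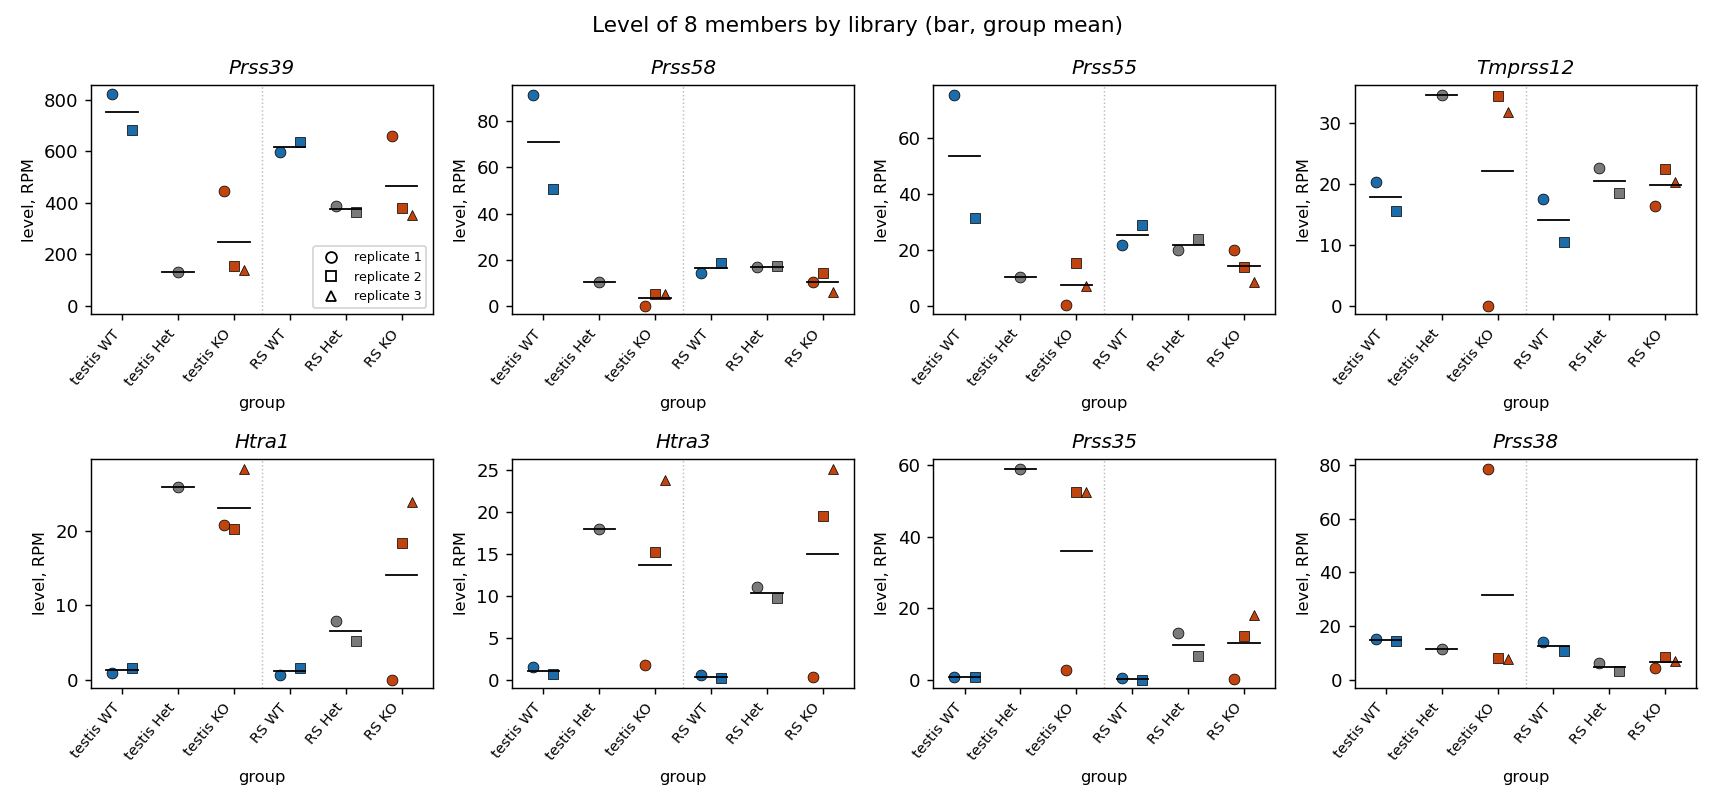
Level in RPM of 8 members by library; symbols give the replicate number and bars the group mean. Htra3 and Prss35 are high in Het and in KO replicates 2 and 3 of both cell types, Prss58 and Tmprss12 are at 0 and Prss38 at 78.5 RPM in testis KO replicate 1.

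Leaving out testis KO replicate 1 changed the count from 0 to 27 of 45 members, 12 higher and 15 lower, beside 65.2% of all genes in either direction, 51.2% higher and 14% lower. The 12 higher included Prss35 (log2 difference 4.95), Htra1 (3.48), Htra3 (3.3), Prss50 (3.26), Tmprss12 (0.86) and Prss43 (0.74). The 15 lower included Klk1b8 (-3.86), Prss58 (-3.51), Prss37 (-2.51), Prss39 (-2.35), Prss48 (-1.96), Prss40 (-1.65), Prss45 (-1.60) and Prss21 (-1.14). In that fit KO and WT lie wholly on opposite sides of the leading component, so genotype and side cannot be told apart. Between KO replicates 2 and 3 and the Het library, which shares their side, limma called 0 of 45 members, beside 0% of all genes, and 1 of 45 had an unadjusted p under 0.05.

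In round spermatids the KO against WT comparison called 0 of 40 members, beside 0% of 18075 genes. Voom called 0, and 9 of 40 members and 3813 of all genes had an unadjusted p under 0.05. Prss42 came closest. Its WT levels were 42.9 and 45.0 RPM, its Het levels 108 and 114 RPM and its KO levels 74.0, 117 and 123 RPM, so every Het and KO library, KO replicate 1 included, lay above WT. Means were 105 ± 26.9 RPM in KO (SD, n = 3) and 44.0 ± 1.48 RPM in WT (SD, n = 2), 2.38-fold, with a log2 difference of 1.2 (SE 0.25, limma adjusted p = 0.121). The Het minus WT difference was 1.32 (SE 0.27, limma adjusted p = 0.0626). In testis Prss42 stood at 67.0 and 51.3 RPM in WT, 75.4 in Het and 68.4 to 75.7 RPM in KO, above both WT libraries by a smaller margin.

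Prss44 was at 17.7 and 20.3 RPM in WT round spermatids, 27.6 and 29.1 in Het and 29.9, 33.6 and 40.3 RPM in KO, again without overlap (log2 difference 0.82, SE 0.26, limma adjusted p = 0.148). Prss43, next to Prss44 on the chromosome, was at 22.6 and 21.9 RPM in WT, 38.6 and 27.1 in Het and 23.8, 33.5 and 45.1 RPM in KO. Prss53 stood the other way, at 8.53 and 7.99 RPM in WT, 3.40 and 3.42 in Het and 4.44, 3.16 and 2.70 RPM in KO (log2 difference -1.08, SE 0.41, limma adjusted p = 0.181). Prss55 was at 21.7 and 29.1 RPM in WT, 19.9 and 23.9 in Het and 20.2, 14.1 and 8.66 RPM in KO (-0.84, limma adjusted p = 0.228). KO lay above WT without overlap for 6 of 40 members and below for 9, beside 16.6% and 19.4% of all genes. The median member difference was -0.13 against 0.03 over all genes.

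Without KO replicate 1 of round spermatids, 7 members were higher and 5 lower of 39, beside 30.8% of all genes in either direction, 19.5% higher and 11.3% lower. The higher ones were Htra3 (4.07), Prss35 (3.66), Htra1 (3.40), Prss50 (3.05), Prss42 (1.43), Prss44 (0.92) and Prss43 (0.78), and the lower ones Prss53 (-1.24), Prss55 (-1.11), Prss39 (-0.75), Prss40 (-0.72) and Prss54 (-0.63), as log2 differences. The 4 cluster genes Prss42, Prss43, Prss44 and Prss50 were among the 7. As in testis, genotype and side cannot be told apart in that fit.

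No member passed between Het and WT in testis (0 of 46, 7 at an unadjusted p under 0.05) or in round spermatids (0 of 40, 10 at an unadjusted p under 0.05), where 0% of all genes passed and voom called 0 members. Prss50 in round spermatids had the smallest adjusted p after Prss42, with a Het minus WT log2 difference of 3.27 (SE 1.0, limma adjusted p = 0.0952). Between KO and Het no member passed either, beside 0% of genes in testis and 0.0111% in round spermatids. At an unadjusted p under 0.05 there were 0 of 46 members in testis and 2 of 40 in round spermatids, Prss41 and Prss51. The Het minus WT values in testis rest on 1 Het library, which was assumed to vary like the other groups.

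The difference between KO and WT was itself different between the cell types for 1 member of 46, beside 2.13% of all genes and 0.294% in that direction. For Prss45 the KO minus WT difference in round spermatids exceeded that in testis by 1.77 on the log2 scale (SE 0.39, limma adjusted p = 0.0448). In round spermatids Prss45 overlapped between genotypes, at 53.8 and 63.1 RPM in WT, 71.7 and 54.7 in Het and 67.1, 58.9 and 52.5 RPM in KO. Its call was lost when any 1 WT or KO library other than testis KO replicate 1 was left out (Het libraries were not left out), with adjusted p from 0.0710 to 0.191, and with the replicate block, at an adjusted p of 0.0637. Prss44 had a difference of 2.01 in the same direction (SE 0.52, limma adjusted p = 0.0681). Without KO replicate 1 in both cell types 15 of 45 members passed, beside 32.8% of all genes.

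Htra2, which encodes the mitochondrial protease Omi, was at 32.0 to 55.0 RPM in testis and 27.8 to 33.8 RPM in round spermatids, without overlap in WT (log2 difference -0.79, 95% interval -1.47 to -0.11, limma adjusted p = 0.134). It overlaps Aup1 and Loxl3 on the opposite strand. Prss47 was at 26.9 to 108 RPM in testis, highest in KO replicate 1, and 47.8 to 73.3 RPM in round spermatids. Prss52 was at 53.5 and 21.7 RPM in WT testis, 5.95 in Het and 31.2, 6.59 and 5.13 RPM in KO, and at 4.90 to 14.8 RPM in round spermatids.

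The other 23 members that reached 1 RPM in 2 libraries had means under 5 RPM. Prss8, which encodes prostasin of epithelia, was at 8.41 and 7.16 RPM in WT testis and 1.80 to 4.07 RPM in the other testis libraries. Prss23 and its antisense gene Prss23os, at up to 11.5 RPM each, share 1867 bases, in which their reads cannot be told apart without strand. Among kallikreins, Klk1b21, Klk1b24 and Klk1b27, known from Leydig cells, had their highest levels in testis, at 4.16, 3.45 and 2.59 RPM, each in KO replicate 2. The Leydig marker sum was 51.4 and 60.8 RPM in WT testis, 121 in KO replicate 1 and 601 to 857 RPM in the other testis libraries. The sum over all 26 kallikrein genes was 2.40 to 41.9 RPM, highest in WT testis replicate 1 with Klk1b8 at 32.2 RPM. This sum carries the uncertainty of the Klk1b8 reads, which Gm44756 overlaps on the opposite strand. Just inside the threshold lay Tmprss3, with 2 libraries at 1 RPM or more, and just outside it Htra4, Klk1b5 and Tmprss5, with 3.21, 2.12 and 2.02 RPM in their 1 library above it. The pancreatic trypsinogens Prss1, Prss2 and Prss3, the implantation proteases Prss28 and Prss29, the mast cell protease Prss34, Prss22 and the kallikreins Klk5, Klk7, Klk9, Klk14 and Klk1b11 had no read in any library.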

How the data were processed

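RNA levels were read in 13 libraries of mouse testis and round spermatids. The authors deposited log2 RPM per gene. Per the submitters' processing notes the tools were HISAT2 2.1.0 with build mm10, Trim Galore 0.6.6 and FastQC 0.11.8; counting program and annotation were not given in the sources used here. Deposited values were whole reads over a library total, with 0.9 read for a count of 0, in 99.8% to 100.0% of values per library (tolerance 0.01 read), so RPM was restored with such genes at 0. All 87 members matched GENCODE M21 coordinates, which gave exon lengths for RPKM.

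A gene entered a fit where 2 or more of its libraries reached 1 RPM. Values of log2(RPM + 1) were tested by limma 3.58.1 (R 4.3.3; lmFit, then eBayes with trend), two-sided, with Benjamini-Hochberg adjustment over all genes. Each cell type was fitted apart, with all 13 libraries in 1 fit for comparisons between cell types. In simulated data without sides of libraries, 98.5% to 100% of 200 genes changed 4-fold were recovered. That checks the procedure and does not give its power here, where KO libraries lie on both sides of the leading component. Sides of libraries came from the leading principal component over genes other than members. Same-numbered KO libraries of testis and round spermatids deviated together (r = 0.504, 0.283 and 0.403 for replicates 1 to 3), and WT ones did not (-0.02). Testis KO replicate 2 went with round spermatid KO replicate 3 at r = 0.345, and testis replicate 3 with round spermatid replicate 2 at 0.266. The values thus set KO replicate 1 apart and do not settle which libraries are pairs. The main fits treated all libraries as independent, and the replicate block was an alternative. RefSeq promoters (GRCm38.p6) had entries for 69 members.

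Values in all libraries were given for members with a mean of at least 5 RPM and, per comparison, for members past the threshold or else up to 5 a direction by smallest unadjusted p. Up to 4 genes a list were named. Members and lists were chosen with earlier results of these data known. Alternatives were another pseudocount (0.1 RPM), filter or scaling, limma's voom on the recovered reads, a replicate block, the side as a covariate, 1 fit of all libraries and each library left out.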

Additional observations from a re-analysis of the deposited data

Results flagged for a closer look

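One member had a KO minus WT difference that was not the same in both cell types, by a test of the difference itself. KO minus WT for Prss45 in round spermatids exceeded that in testis by 1.77 on the log2(RPM + 1) scale (limma adjusted p = 0.0448). It was the 1 call among 46 members (2.17%), a share near the 2.13% of all genes. In testis the Het library, at 60.7 RPM, lay nearer to KO (38.9, 50.8 and 54.5 RPM) than to WT (163 and 161 RPM). The difference did not pass with centred (2.59) or quantile-normalized (2.17) libraries or with the replicate block. Nor did it pass without any 1 KO library other than testis KO replicate 1.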

How the results depend on the processing

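Counts of members called are given here. KO against WT testis (0) gave 13 with the side of the library as covariate, which compares KO replicate 1 alone with WT, and 10 in 1 fit of all libraries. Het against WT testis (0) gave 2 with the replicate block, 8 with the side and 3 in 1 fit of all libraries. Het against WT round spermatids (0) gave 1 with quantile normalization and 2 with the replicate block. Round spermatids against testis in WT (5) gave 3 with centring and 16 with the side or without KO replicate 1 in both cell types. In KO (2) it gave 0 with a pseudocount of 0.1 RPM or no filter, 1 with centring, 14 with the side or without KO replicate 1 in both cell types, and 3 with the replicate block. The KO effect between cell types (1) gave 2 with a mean of at least 5 RPM, 0 with centring, quantile normalization or the replicate block, 12 with the side and 15 without KO replicate 1 in both cell types.

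With 1 library left out, counts ranged from 0 to 27 (KO against WT testis), 0 to 12 (KO against WT round spermatids), 0 to 20 and 0 to 10 (Het against WT testis and round spermatids), and, leaving out only libraries of the genotypes compared, 1 to 3 (WT cell types), 0 to 15 (KO cell types) and 0 to 13 (KO effect between cell types). The highest counts in comparisons that use KO came without KO replicate 1. KO against Het stayed at 0. Signs turned for Prss54, KO minus WT testis, with centring (-0.053), and with the side as covariate for Htra3 (-0.045) and Prss35 (-0.20), KO minus WT round spermatids, and Prss35 (-0.82), Htra3 (-1.07), Prss39 (0.13) and Prss40 (0.18), Het minus WT round spermatids. The cause was not tested. Voom scaled by library totals and the fits without KO replicate 1 in both cell types were chosen after seeing the data; voom with TMM scaling was not run. Of the member differences recomputed under other settings, 366 kept direction and side of the threshold, 23 gained and 19 lost a call. Members under 0.407 RPM, the level of 3 reads in the shallowest library, could not be told from absent.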
